A study of Mus musculus with 3 samples.

Results

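Oxidative phosphorylation transcripts were examined in RAW 264.7 cells, a mouse macrophage line of BALB/c background and male sex whose number the source label spells differently. The members were chosen by name, as every feature with a symbol starting mt- and every protein-coding gene with a symbol starting Nduf, Uqcr, Sdh (a to d), Cox4 to Cox8 or Atp5. This gave 131 of the 54331 features in the deposited table, 37 from the mitochondrial genome and 94 from the nuclear genome. The mitochondrial members were 13 mRNAs, 2 rRNAs and 22 tRNAs. Of the nuclear members, 85 encode subunits, 8 are the Ndufaf assembly factors of complex I, and Atp5s encodes factor B, which is linked to ATP synthase.

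All 3 libraries came from cells treated for 5 h with 100 ng/mL of LPS, a bacterial product sensed by TLR4. The cells carried a control shRNA in 1 library, labelled wild-type, and an shRNA against GIV (Girdin, gene Ccdc88a) in 2 libraries labelled GIV-depleted, with a different shRNA in each. No library without LPS was analysed here, and the series is titled for how GIV dampens TLR4 signalling and inflammation in macrophages. Values are the authors' normalized counts, with totals from 47349097 to 49756670 per library, and the order given throughout is control, shRNA 1, shRNA 2.

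Ccdc88a, the targeted gene, had 2580, 1734 and 2561 normalized counts. The library labelled shRNA 2 thus had about the control's level of the targeted mRNA, against its label, and every direction given for both libraries rests in part on it. The macrophage markers were present, with 10 of 10 tested and a summed value of 466996, 360515 and 380769. Of these, 6 were lower than the control in both libraries, 1 (Ptprc) was higher in both and 3 were neither. Lyz2, the largest part of the sum, had 199781, 121997 and 138145. Fibroblast and epithelial markers summed to at most 6.54 in any library, with 0 tested. Lymphocyte markers summed to 9.36, 11.1 and 28.9, muscle markers to 35.8, 36.1 and 125, and germ cell markers to 30.05, 15.5 and 21.2. The lower macrophage marker sum stood beside the lower mitochondrial mRNA values described below, and its part in them was not tested. In bulk libraries, fewer cells of a type and less RNA per cell cannot be told apart.

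Oxidative phosphorylation couples the passage of electrons along the respiratory chain to ATP synthesis at the inner mitochondrial membrane. Complexes I, III and IV pump protons, complex II feeds electrons from succinate without pumping, and complex V uses the proton gradient to make ATP. Complexes I, III, IV and V mix subunits encoded by the circular mitochondrial genome with subunits encoded in the nucleus, whereas complex II is wholly nuclear. Macrophages given LPS are known for a shift toward glycolysis and away from respiration.

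Most mRNAs of the mitochondrial genome were lower with either GIV shRNA, and neither of its rRNAs was lower in both libraries. Most transcripts of the nuclear subunits stayed close to the control, with 45 of the 78 tested lower in both and 13 higher in both. Of the 13 mitochondrial mRNAs, 12 were lower than the control in both libraries and 0 were higher in both. Over the 13877 features that averaged 10 or more normalized counts, 35.2% were lower in both and 34.9% higher in both. The median log2 difference of the 13 mRNAs was -0.53 for shRNA 1 and -0.40 for shRNA 2, on the log2(value + 1) scale used for every difference here. For the 78 tested nuclear subunits it was -0.063 and -0.034, and for all tested features 0.00052 and -0.0021. Both libraries were set against the same single control, so their directions are not independent of each other. The 13 mRNAs come from the same small genome, all but mt-Nd6 from the same strand, and some of the genes overlap. They need not vary independently either, unlike most of the features they are set beside.

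No member passed limma's test of both libraries against the control, and this held for 0 of 104 tested members at an adjusted p of 0.05, as for 0 of the 13877 features (0%). The lowest adjusted p among the members was 0.53, for mt-Nd4. At an unadjusted p under 0.05 there were 6 of the 104 members, a smaller share than the 6.94% of all features. All 6 were among the 13 mitochondrial mRNAs, which need not vary independently of each other. Without limma's variance trend that member count was 2, where 966 features had such a p. Without a filter on low values it was 4 of 117, where 2716 of 23815 features did. With a length and GC correction it was 10 using medians over all coding transcripts, and 7 using principal transcripts. There, 989 and 927 of 13820 features did. With 1 control library the fit has 1 residual degree of freedom, taken from the spread between the shRNAs, and it treats the control as if it had that spread. limma also draws each feature's variance toward a trend over all features, so a printed SE is not the spread of that gene alone. The labels do not state whether the cultures were separate, so p-values measure only the spread between these libraries.

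Several mitochondrial genes have near-identical copies in the nuclear genome, and these carry values of their own in the table. A stretch of chromosome 1 (24611535 to 24616197, minus strand, GRCm38) is annotated with unprocessed pseudogenes matching 7 mitochondrial mRNAs over 294 to 876 bases. The copies of mt-Atp6, mt-Co2, mt-Co3, mt-Nd4 and mt-Nd4l matched at 100% identity over the aligned stretch. The copies of mt-Co1 and mt-Nd3 differed from the mitochondrial gene by 1 base each. These windows are shown because that base, in capitals, is the sole difference in the match by which a read could be told apart, and both come from the reference annotation, not from the cells.
mt-Co1, M:6390-6423, plus strand: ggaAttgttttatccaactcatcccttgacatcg
Gm29216, chr1:24616155-24616188, minus strand: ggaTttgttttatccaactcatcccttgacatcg
mt-Nd3, M:9459-9491, plus strand: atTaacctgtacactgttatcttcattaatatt
Gm28438, chr1:24613087-24613119, minus strand: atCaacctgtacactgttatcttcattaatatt

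Counted from 1 at the 5′ end of the mitochondrial transcript, the differences from gene to copy are A1066T in mt-Co1 and T3C in mt-Nd3, the latter in the start codon. Whether this stretch is present in the BALB/c genome was not examined. Mitochondrial mRNAs with a copy are therefore given as deposited and with the copy added. Adding the copies was chosen after the values were seen.

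**Figure D1:**
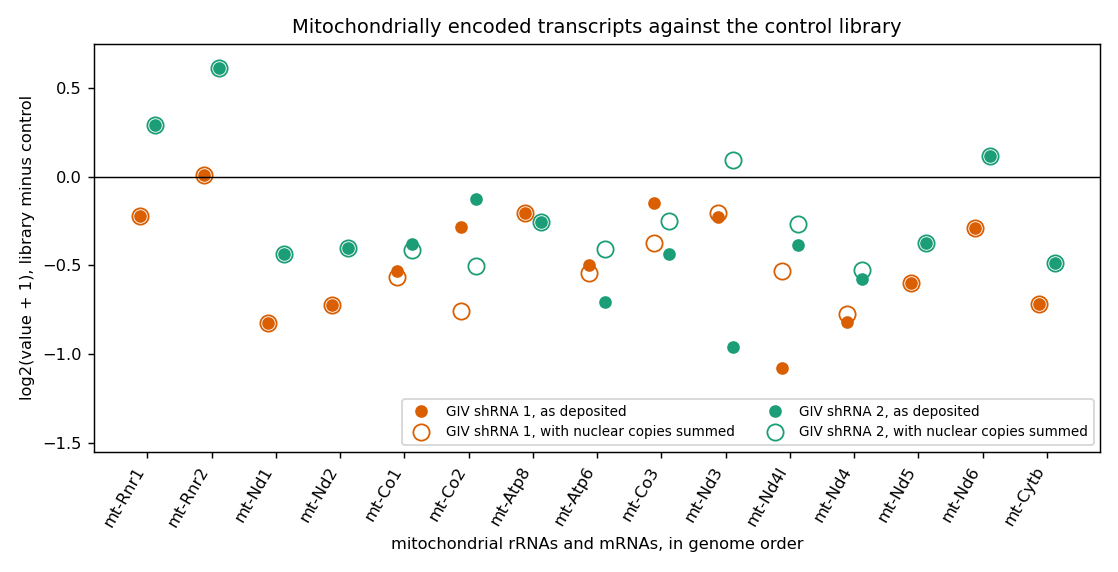
Log2 difference from the control for the 2 rRNAs and 13 mRNAs of the mitochondrial genome in genome order, with 1 point per library labelled GIV-depleted, as deposited (filled) and with nuclear copies summed (open). Among the mRNAs, mt-Nd6 with shRNA 2 lies above 0 as deposited, and mt-Nd3 with shRNA 2 also does once its copy is added.

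Complex I, the NADH dehydrogenase and entry point for electrons from NADH, has 7 mitochondrial subunits that form much of its membrane arm. mt-Nd1 had 108996 normalized counts in the control, 61597 with shRNA 1 and 80517 with shRNA 2. mt-Nd2 had 47605, 28818 and 35993. Both mRNAs, which have no copy among those kept, were highest in the control and lowest with shRNA 1, with mean log2 differences of -0.63 (SE 0.22, limma adjusted p = 0.71) and -0.56 (SE 0.19, limma adjusted p = 0.69). mt-Nd4 had 35815, 20279 and 24004 as deposited and 37351, 21831 and 25898 with its copy Gm28439, and mt-Nd5 had 26558, 17537 and 20488. These showed the same order, with mean differences of -0.70 (SE 0.16) for mt-Nd4, or -0.65 with its copy, and -0.49 (SE 0.16) for mt-Nd5, and neither passed in limma (adjusted p = 0.53 and 0.69).

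The shorter complex I mRNAs were less alike. mt-Nd4l, which overlaps mt-Nd4 by 7 bases, had 3541, 1673 and 2712 as deposited and 3762, 2607 and 3128 with its copy Gm10222. The log2 difference for shRNA 1 was -1.08 as deposited and -0.53 with the copy, and the mean difference -0.73 and -0.40. mt-Nd3 had 2437, 2084 and 1250 as deposited, but 13210, 11455 and 14125 with its copy Gm28438. Its mean difference was -0.59 as deposited and -0.055 with the copy, and with the copy the library labelled shRNA 2 was the highest of the 3.

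mt-Nd6 is the one mRNA of the light strand, and overlaps mt-Nd5 on the opposite strand by 14 bases. In human cells its mRNA lacks the poly(A) tail of the other mitochondrial mRNAs, and the libraries here were made with a stranded mRNA kit, a type that selects poly(A) RNA. It had 307, 251 and 333 normalized counts, and per kb it had the lowest level of the 13 mRNAs. The control lay between the other libraries, with log2 differences of -0.29 and 0.12.

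Complex III, which passes electrons from ubiquinol to cytochrome c, has 1 mitochondrial subunit, cytochrome b. mt-Cytb had 54666 normalized counts in the control, 33241 with shRNA 1 and 39076 with shRNA 2. Both libraries lay below the control, with a mean difference of -0.60 (SE 0.16, limma adjusted p = 0.63).

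Complex IV, cytochrome c oxidase, is built around the catalytic core encoded by mt-Co1, mt-Co2 and mt-Co3. mt-Co1 had 204525, 141552 and 157290 normalized counts as deposited, and 228591, 154682 and 172034 with its copies. Its mean difference was -0.45 (SE 0.17, limma adjusted p = 0.72), and -0.49 with the copies. mt-Co2 had 19489, 16034 and 17864, whereas its copy Gm28661 had 126957, 70755 and 85578. The copy thus held more than the gene in every library, and the mean difference was -0.20 as deposited and -0.63 for the sums of 146446, 86790 and 103442. mt-Co3 had 121182, 109277 and 89619, and its copy Gm28437 had 94398, 56918 and 92075. The gene as deposited was lowest with shRNA 2 and the copy was lowest with shRNA 1. Their sum was 215580, 166195 and 181695, with a mean difference of -0.31 (SE 0.17), against -0.29 as deposited.

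Complex V, the ATP synthase, takes mt-Atp6, a part of the proton channel, and mt-Atp8 from the mitochondrial genome. These genes overlap, so the values of mt-Atp6 and mt-Atp8 are not wholly separate. The shared bases are shown because a read that lies within them matches both genes, with the start codon of mt-Atp6 in capitals.
mt-Atp8 and mt-Atp6, M:7927-7969, plus strand: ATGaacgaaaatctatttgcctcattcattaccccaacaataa

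mt-Atp6 had 34608, 24507 and 21253 normalized counts, and its copy Gm10925 had 190947, 130467 and 148736. The gene was lowest with shRNA 2, and gene and copy together (225555, 154974 and 169989) were lowest with shRNA 1. The mean difference was -0.60 as deposited (SE 0.15, limma adjusted p = 0.59) and -0.47 with the copy. mt-Atp8, with no copy among those kept, had 17135, 14859 and 14336, a mean difference of -0.23 (SE 0.12).

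**Figure D2:**
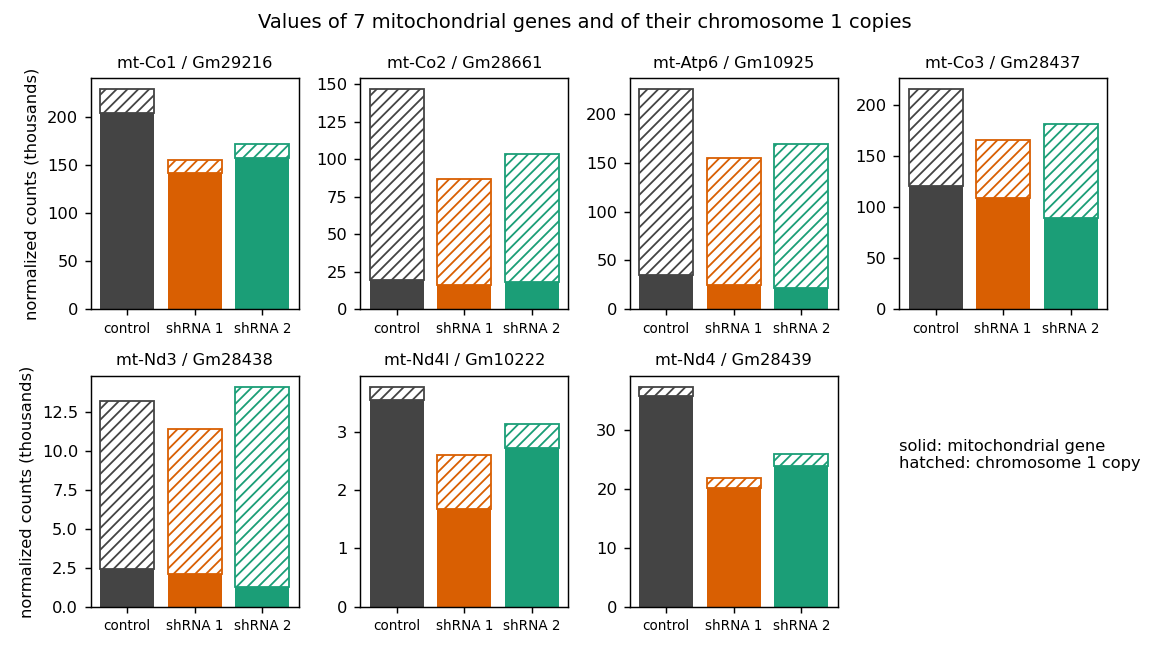
Normalized counts, scaled as the axis label states, of 7 mitochondrial mRNAs (solid) and of their chromosome 1 copies (hatched, stacked on top) in the 3 libraries, with a separate linear axis from 0 in each panel. The copy takes most of the stack for mt-Co2, mt-Atp6 and mt-Nd3, and only for mt-Nd3 is the stack of shRNA 2 above that of the control.

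With the copies added, 11 of the 13 mRNAs were below the control in both libraries and 0 above it in both, mt-Nd3 and mt-Nd6 being the exceptions. The median log2 difference was then -0.56 for shRNA 1 and -0.40 for shRNA 2. By size, 6 mRNAs were at least 1.5-fold lower with shRNA 1 and 2 with shRNA 2, where 7.85% and 7.19% of all tested features were. With the copies added these counts were 6 and 0. At 1.2-fold, 10 mRNAs were lower with each shRNA, and 11 and 9 with the copies added, where 21.9% and 21.1% of all features were. At 2-fold, 1 was lower with shRNA 1 and 0 with shRNA 2, and 0 and 0 with the copies added, where 2.94% and 2.54% of all features were. The mRNAs at least 1.5-fold lower with shRNA 2 as deposited, mt-Nd3 and mt-Atp6, both have a chromosome 1 copy.

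The 13 mRNAs held 1.38% of the control's total, 0.948% with shRNA 1 and 1.07% with shRNA 2. With the copies these shares were 2.29%, 1.52% and 1.82%. The control had the highest share either way, and shRNA 1 the lowest. Nuclear subunits held 0.874%, 0.816% and 0.867%.

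With shRNA 2 the mitochondrial rRNAs, which form the core of the mitochondrial ribosome, did not follow the mRNAs. How far a kit of the type that selects poly(A) RNA captures rRNA was not examined. mt-Rnr1 (12S) had 17871, 15310 and 21858 normalized counts. mt-Rnr2 (16S) had 7979, 8048 and 12211. Both were highest with shRNA 2. With shRNA 1, mt-Rnr1 lay below the control at -0.22, farther than mt-Co3 as deposited (-0.15), and mt-Rnr2 lay at the control's level. Their median log2 difference was -0.11 for shRNA 1 and 0.45 for shRNA 2. Of the 22 tRNAs, which are cut out from between the mRNAs and are too short for most such libraries, 9 were listed at 0 throughout and 2 passed the filter on low values. Those were mt-Tw, with 31.7, 24.5 and 27.0, and mt-Tl1, with 14.0, 12.2 and 15.5.

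The nuclear subunits were tested for 78 of 85. The others were Cox6b2, Cox7b2, Cox8b, Cox8c and a second identifier of Atp5o, all listed at 0 in every library, Cox4i2 (6.51, 4.49 and 1.91) and Ndufa4l2 (0, 1.11 and 0). Of the 78, 45 were below the control in both libraries, 13 above it in both and 20 neither, with mean log2 differences from -0.46 to 0.93. Over all tested features, 35.2% were lower in both and 34.9% higher in both, the shares to set beside every such count below unless other processing is named. At least 1.5-fold lower were 0 with shRNA 1 and 1 with shRNA 2, where 7.85% and 7.19% of all features were. At least 1.5-fold higher were 2 and 1, where 8.83% and 9.99% of all features were. At 1.2-fold, 8 and 7 of the 78 were lower, smaller shares than the 21.9% and 21.1% of all features. At 2-fold, 0 were higher in either library, where 3.98% and 4.78% of all features were. The median of the mean differences, -0.068, was -0.10 with a trend on transcript length and GC content removed, using the median over all coding transcripts of a gene. It was -0.026 when principal transcripts, chosen after the first result was seen, supplied length and GC content. The balance of lower to higher in both moved with it, to 56 against 8 and 31 against 24, and it was 33 against 15 with equal totals. The median of all features was -0.053, -0.042 and 0.015 under these 3 kinds of processing. The shares of all features lower or higher in both were not counted for them.

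**Figure D3:**
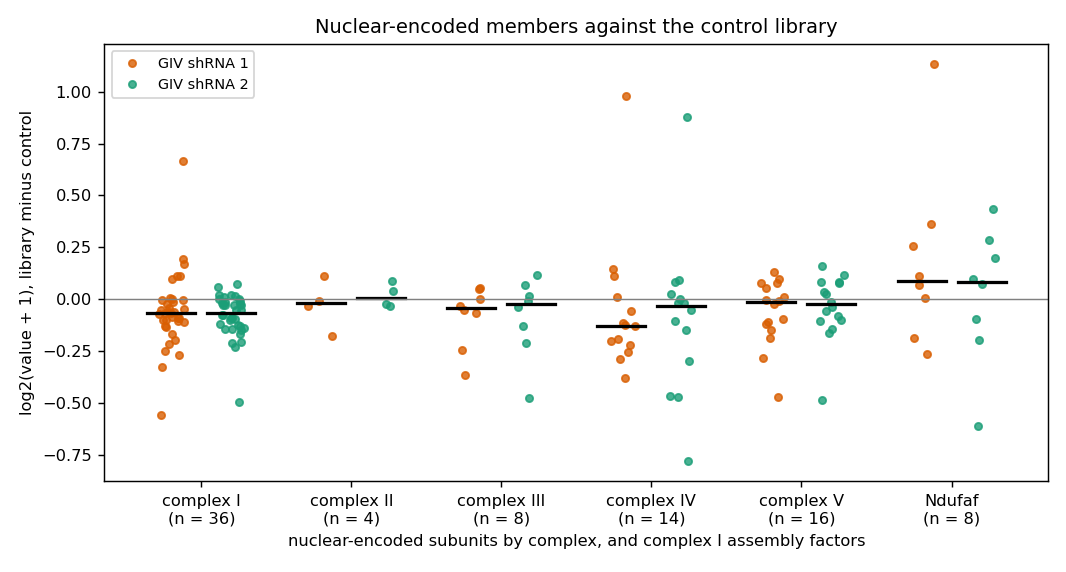
Log2 difference from the control of the tested nuclear subunits by complex and of the Ndufaf assembly factors, with 1 point per gene and library and a black line at each median. The medians lie between -0.13 and 0.089, and the points far from 0 include Ndufaf6, Ndufa10, Cox6a2 and Cox8a.

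In complex I, 24 of 36 nuclear subunits were below the control in both libraries and 3 above it in both, with median differences of -0.066 for shRNA 1 and -0.064 for shRNA 2. Ndufs7, which carries the last iron-sulfur cluster before ubiquinone, had 1893, 1284 and 1616 normalized counts. It was lower in both, with a mean difference of -0.39 (SE 0.20, limma adjusted p = 0.75). Ndufa10, an accessory subunit, had 3942, 6259 and 3410, so that shRNA 1 lay above the control and shRNA 2 below. The core subunits Ndufs1 (5966, 6449 and 6207) and Ndufv1 (3504, 2912 and 3183), which bind iron-sulfur clusters and NADH, lay on opposite sides of the control. Ndufs4, an accessory subunit lost in a form of Leigh syndrome, had 2987, 2981 and 2966, which differ little.

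The complex I assembly factors were spread more widely, with 5 of 8 above the control in both libraries and 2 below it in both. Ndufaf4 had 1446, 1857 and 1956 normalized counts, higher in both, with a mean difference of 0.40 (SE 0.14, limma adjusted p = 0.72). Ndufaf6 was high with shRNA 1 alone, at 238, 525 and 274. Ndufaf8, which acts with Ndufaf5 in modifying a subunit, had 424, 353 and 277 and was lower in both. Ndufaf3 was the other member lower in both (497, 436 and 434), and the remaining factors had mean differences from 0.0073 (Ndufaf2) to 0.16 (Ndufaf1).

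Complex II, succinate dehydrogenase, sits in both the respiratory chain and the TCA cycle, and has no mitochondrial subunit. Its flavoprotein Sdha had 10223, 9046 and 10060 normalized counts, and the iron-sulfur subunit Sdhb had 3749, 3727 and 3855. The membrane anchors Sdhc (4491, 4853 and 4393) and Sdhd (6371, 6232 and 6769) were also near the control. Mean log2 differences of the 4 genes ran from -0.10 to 0.040, and Sdha was the 1 gene lower in both libraries.

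In complex III, 5 of 8 nuclear subunits were below the control in both libraries and 3 above it in both. Uqcrq, a small subunit beside cytochrome b, had 4362, 3688 and 3132 normalized counts, and Uqcr11 had 2513, 1949 and 2174. Both were highest in the control, with mean differences of -0.36 (SE 0.16) and -0.29 (SE 0.15) and limma adjusted p of 0.73 and 0.76. The core protein Uqcrc1 (8761, 8452 and 8006) and the Rieske iron-sulfur protein Uqcrfs1 (3855, 3775 and 3760) were also lower in both, by less. Uqcrb (3797, 3928 and 4123) and the hinge protein Uqcrh (7174, 7439 and 7528) were higher in both.

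Complex IV has 14 tested nuclear subunits, Ndufa4 included, which was once assigned to complex I. Of these, 7 were below the control in both libraries and 2 above it in both. Cox8a had 6492, 5929 and 3777 normalized counts and Cox5a had 5613, 5153 and 4070. Both were lowest with shRNA 2, and Cox8a was the 1 nuclear subunit at least 1.5-fold lower there. Cox6a1, the ubiquitous isoform of subunit 6a, had 5847, 4897 and 4760, nearly equal with the shRNAs, a mean difference of -0.28 (SE 0.12, limma adjusted p = 0.73). Ndufa4 had 5518, 5961 and 3975, low with shRNA 2 alone.

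The tissue isoforms of complex IV were low in these cells. Cox6a2, the heart and skeletal muscle isoform, had 15.8, 32.2 and 29.9 normalized counts, the largest mean difference of the nuclear subunits at 0.93 (SE 0.46, limma adjusted p = 0.75), on few reads. Cox7a1, also a muscle isoform, had 46.7, 35.7 and 49.8. Cox7a2, the ubiquitous counterpart of Cox7a1, had 4986, 4286 and 4498, and Cox4i1 had 15934, 13856 and 14840, both lower in both libraries. Cox7a2l, known for joining complexes III and IV in supercomplexes, had 4249, 4276 and 4258, close to level. AA467197, the mouse counterpart of the NDUFA4 paralog NMES1, had 247, 288 and 215.

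In complex V, 8 of 16 tested nuclear subunits were below the control in both libraries and 5 above it in both. Atp5d, the delta subunit of the central stalk, had 6370, 5231 and 4549 normalized counts, a mean difference of -0.38 (SE 0.15, limma adjusted p = 0.73), the lowest adjusted p of any nuclear subunit. Atp5j2, a membrane subunit, had 3764, 2720 and 3358. Both were highest in the control. The catalytic-head subunits Atp5a1 (46573, 40892 and 43277) and Atp5b (67667, 62816 and 67142) were below the control in both libraries, the log2 difference farthest from 0 being -0.19, for Atp5a1 with shRNA 1. Atp5s, outside the subunits, had 67.2, 117 and 91.4.

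Among nuclear subunits with processed copies, Atp5g2, which encodes the c-ring protein, lay on the other side of the control once its copy was added. It had 6082, 6670 and 6442 normalized counts as deposited, higher in both libraries. Its copy Gm10175 had 766, 0 and 0, and the sums of 6848, 6670 and 6442 were lower in both. Ndufab1, the mitochondrial acyl carrier protein, had 1657, 1630 and 1573, while its copy Gm4459 had 2050, 1868 and 1402. With copies added, 47 of 78 nuclear subunits were lower in both and 13 higher in both.

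Per kb of transcript, mitochondrial mRNAs had a higher median than nuclear subunits of the same complex. The median level of the complex I mRNAs was 27105, 15843 and 18794 normalized counts per kb with copies added, and that of the nuclear complex I subunits was 2470, 2408 and 2365. The ratio of these medians was 10.98 in the control, 6.58 with shRNA 1 and 7.95 with shRNA 2. In complex III it was 8.73, 5.71 and 6.84, in complex IV 26.7, 16.7 and 23.0, and in complex V 25.8, 19.1 and 19.6. With copies added, the control had the highest ratio in each of these complexes and shRNA 1 the lowest. As deposited, the ratios were 5.90, 3.99 and 4.75 in complex I, 16.5, 12.1 and 15.5 in complex IV and 8.36, 6.91 and 6.21 in complex V, where shRNA 2 was the lowest. Complex III is the same either way, since mt-Cytb has no copy among those kept, and nuclear levels are as deposited throughout. Lengths are those of principal transcripts. With the median length over all coding transcripts, which was used first, the complex I ratios were 9.66, 5.86 and 7.0 and the complex III ratios 6.28, 3.96 and 4.91, in the same order.

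**Figure D4:**
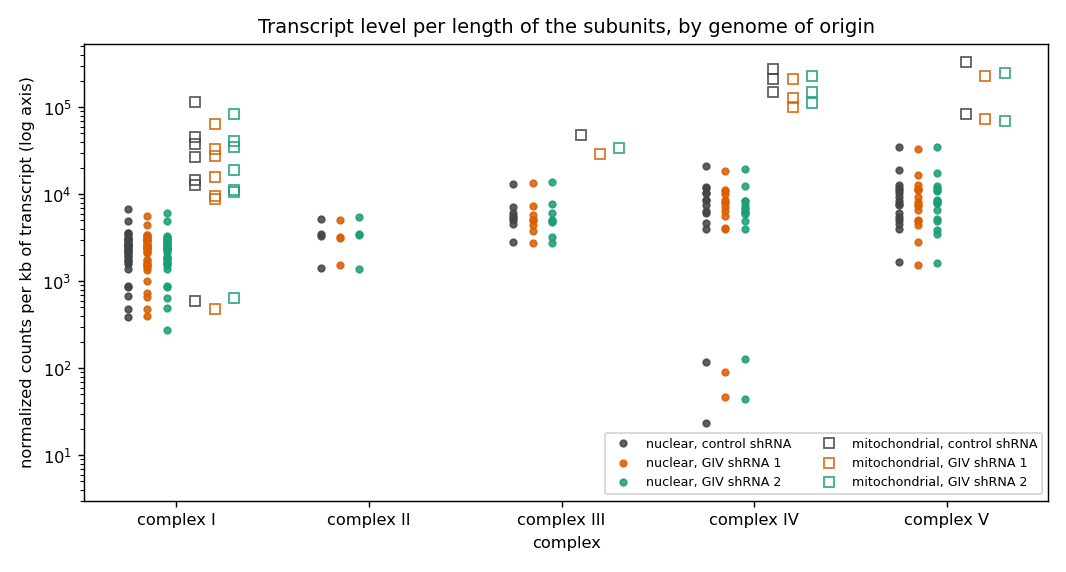
Normalized counts per kb of principal transcript on a log axis, for the tested nuclear subunits (dots) and mitochondrial mRNAs with copies summed (squares) by complex, in the 3 libraries. In the control, nuclear subunits run from 23.3 (Cox6a2) to 35317 (Atp5b), and the low square in complex I is mt-Nd6, at 592.

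Nuclear genes of the respiratory chain are known targets of NRF1, GABPA (NRF-2) and YY1. Promoter windows from RefSeq (GRCm38.p6), from 250 bases before to 50 after the gene start, were found for 76 of the 94 nuclear members and searched on both strands. The NRF1 motif, GCGCA, any base N and GCGC, was in 18 of the 76 (23.7%), against 4.78% of 27025 promoters. Those 27025 are all genes with such a window, not matched to the members for gene type, expression or GC content. The GABPA motif CCGGAAG was in 17 (22.4%, against 9.12%) and the YY1 motif AAGATGG in 11 (14.5%, against 6.48%). The end of the GABPA motif is the start of the YY1 motif, so that overlapping matches can count for both. A match is a run of letters, not a bound site. The promoters of Sdha (NRF1), Cox6a1 (NRF1 and GABPA) and Cox8a (GABPA) below show these motifs, in capitals. All were lower in both libraries, with mean log2 differences of -0.10, -0.28 and -0.46, Cox8a mainly with shRNA 2. These examples were not chosen by a stated rule, and the directions of the other members with a motif are not given. Of the 87 tested nuclear members, 47 were lower in both, 19 higher in both and 21 neither. A link between motifs and values was not tested. GABPA matches read CTTCCGG here, being on the other strand.
Sdha, chr13:74350191-74350490, minus strand: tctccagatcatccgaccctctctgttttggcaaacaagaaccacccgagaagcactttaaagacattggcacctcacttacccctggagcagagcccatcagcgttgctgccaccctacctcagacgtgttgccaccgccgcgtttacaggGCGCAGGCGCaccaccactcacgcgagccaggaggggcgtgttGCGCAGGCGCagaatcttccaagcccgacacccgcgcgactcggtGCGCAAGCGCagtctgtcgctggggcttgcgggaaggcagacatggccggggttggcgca
Cox6a1, chr5:115348909-115349208, minus strand: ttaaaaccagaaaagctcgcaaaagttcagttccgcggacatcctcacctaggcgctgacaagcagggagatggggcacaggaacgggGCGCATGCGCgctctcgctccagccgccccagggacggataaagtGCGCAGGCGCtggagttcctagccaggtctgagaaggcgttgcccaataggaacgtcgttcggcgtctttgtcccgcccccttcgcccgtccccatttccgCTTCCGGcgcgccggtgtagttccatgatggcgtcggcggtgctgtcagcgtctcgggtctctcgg
Cox8a, chr19:7217567-7217866, minus strand: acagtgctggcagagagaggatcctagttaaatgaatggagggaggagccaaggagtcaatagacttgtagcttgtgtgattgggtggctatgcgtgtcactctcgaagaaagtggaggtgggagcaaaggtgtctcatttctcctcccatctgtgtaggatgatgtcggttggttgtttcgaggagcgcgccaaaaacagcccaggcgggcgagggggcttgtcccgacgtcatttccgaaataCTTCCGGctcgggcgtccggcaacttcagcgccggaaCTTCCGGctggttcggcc

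Genes that make, copy or read the mitochondrial genome gave no shared direction. Of 25 tested genes of mitochondrial transcription, RNA processing and decay, 8 were below the control in both libraries and 11 above it in both, with a median mean difference of -0.015. Over all tested features these shares were 35.2% and 34.9%. The mitochondrial RNA polymerase Polrmt had 1106, 775 and 967 normalized counts. The transcription factors Tfb2m (786, 939 and 1381) and Tfam (1887, 2344 and 2218) were higher in both, as was Lrpprc, which stabilizes mitochondrial mRNAs (4020, 4324 and 4565). None of these passed in limma, with adjusted p from 0.75 to 0.84.

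Among 14 genes of mitochondrial DNA replication and the nucleoid, 3 were lower in both and 6 higher in both. Polg, the catalytic subunit of the mitochondrial DNA polymerase, had 1336, 3122 and 5891 normalized counts, with log2 differences of 1.22 and 2.14 (limma adjusted p = 0.59 over both). Rrm2b, a ribonucleotide reductase subunit, had 801, 1240 and 1113. Cmpk2, an LPS- and interferon-induced mitochondrial nucleotide kinase, had 120832, 119903 and 94196, lowest with shRNA 2.

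Of the regulators, Nrf1 had 1167, 1544 and 1542, higher in both, and Ppard had 1009, 1040 and 1308. The coactivator Ppargc1a was listed at 0 in every library, and its relative Ppargc1b had 126, 130 and 154. Of the 8 tested regulators, 2 were lower in both and 3 higher in both.

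Of the pathways that feed the chain, the TCA cycle was mixed. Electron carriers and coenzyme Q synthesis had more genes lower than higher, with a median mean difference of -0.10. Of 14 TCA cycle genes, 5 were below the control in both libraries and 6 above it in both. Idh2, the mitochondrial NADP-linked isocitrate dehydrogenase, had 5419, 3646 and 2866, a mean difference of -0.75 (SE 0.20, limma adjusted p = 0.61). Suclg2 had 3919, 4699 and 5001. Of 16 tested genes for electron carriers and coenzyme Q synthesis, 9 were lower in both and 3 higher in both, among the former Coq6 (903, 700 and 572) and Coq9 (1256, 837 and 1076).

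Of 41 tested assembly factors not named by the symbol rule, 13 were lower in both and 11 higher in both. Lyrm7, which acts in maturing the Rieske protein of complex III, had 15.1, 125 and 182 normalized counts. Its log2 differences were 2.97 and 3.50, and limma gave an adjusted p of 0.26. Uqcc1, another complex III assembly factor, had 759, 3520 and 1725. The control was the lowest library for both. Among 16 genes of the outer membrane and protein import, 6 were lower in both and 5 higher in both, with Tomm20 at 6245, 5250 and 4614 and Timm17a at 3305, 4198 and 4048. Of the 5 tested carrier and uncoupling genes, 3 were lower in both and 0 higher in both, among them the ATP synthase inhibitor Atpif1 (6967, 6469 and 5861) and Ucp2 (23645, 23249 and 21001).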

How the data were processed

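Strand-specific mRNA libraries were made with the TruSeq Stranded mRNA kit, per the labels' protocols. The deposited table holds the authors' normalized counts, a signal per gene that is never negative. The submitters' processing notes name Salmon, DESeq, DESeq2 and GRCm38, and their versions, settings and the annotation release are not given in the sources used here. The commonest lowest value was 0.931, 1.11 and 0.966 in the control, shRNA 1 and shRNA 2, so values near 1 stand for little more than a single read.

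Identifiers were matched to GENCODE M21 (GRCm38), with 54097 of 54331 named. The 13877 features with a mean of at least 10 were put on the log2(value + 1) scale, where fold changes of low genes are understated, and fitted with limma 3.58.1 in R 4.3.3 (variance trend, two-sided, Benjamini-Hochberg). A single shRNA has no test, so features were counted at 1.5-fold. The fit was tested on simulated data.

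Copies were found with blastn 2.17.0 as annotated pseudogenes on the same strand, with at least 95% identity over at least 150 bases and 50% of the copy. Of 52 found, the 19 with a mean of at least 10 were used. Transcript length was first the median over all coding transcripts. It was changed to principal transcripts for levels per kb after the levels were seen, because short partial transcript models set that median for some members. The length and GC correction is given both ways.

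Named genes were the mitochondrial mRNAs and rRNAs, in each nuclear complex the 4 tested members with the largest mean difference and the 2 with the shRNAs farthest apart, a set of core and isoform genes, and in each related list the 2 with the largest mean difference plus some chosen regulators. Ndufaf1, Ndufaf2, Ndufaf3, Atp5g2 and Ndufab1 were added after their values were seen. The members and lists were chosen with earlier results of these data known. Alternatives covered the pseudocount, filter, scaling, quantile normalization, length and GC content, variance trend, fold rule, copies and the omission of either GIV shRNA library.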

Additional observations from a re-analysis of the deposited data

How the results depend on the processing

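The median difference of the mitochondrial mRNAs kept its sign in every alternative run, and was -0.53 to -0.40 with 1 library labelled GIV-depleted left out. The number higher than the control was then 0 to 1. Likewise 22 to 24 nuclear subunits were higher (13 in both libraries), a criterion that 1 library meets more easily than both. The nuclear median was -0.063 to -0.034, with -0.066 to -0.064 in complex I, -0.020 to 0.0084 in II, -0.13 to -0.035 in IV and -0.024 to -0.015 in V.

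The small nuclear medians moved with the processing. With equal totals they were -0.059 (complex I), -0.018 (III) and -0.020 (V), and with totals that leave out mitochondrially encoded features -0.064 (I) and -0.025 (V). Quantile normalization gave -0.097, -0.053 and -0.016 for I, III and V, and summing copies -0.082 (I) and -0.061 (V). The median of all features moved as well, from -0.0015 to 0.015 with equal totals. It was 0.0095 with totals that leave out mitochondrially encoded features, -0.023 with quantile normalization and -0.0014 with copies summed.

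The length and GC correction gave different answers under its 2 definitions of length, and the second was added after the first was seen. It also moved the median of all features, to -0.053 with medians over all coding transcripts and -0.042 with principal transcripts. With the median over all coding transcripts, the nuclear median was -0.10, 8 subunits were higher in both, and complexes I, III and V were at -0.11, -0.078 and -0.097. With principal transcripts these were -0.026, 24, -0.023, -0.016 and 0.037, with complex II at -0.00041 and complex IV at -0.059. The sign of complex V and the number higher in both rest on that definition, and the cause was not tested.

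Features passing limma's adjusted p of 0.05 were 0 (963 at an unadjusted p under 0.05). They were 1 at a mean of at least 50, with equal totals, with totals lacking mitochondrial features, by median ratio, with copies summed and with the correction on principal transcripts, and 9 with the correction on all coding transcripts. Of the members, 0 passed in any of these fits. At 2-fold, 1 mitochondrial mRNA was lower with shRNA 1 and 0 with shRNA 2, and at 1.2-fold 10 and 10 (2.94%, 2.54%, 21.9% and 21.1% of all features). For nuclear subunits, 8 and 7 were lower at 1.2-fold, smaller shares than those of all features, and at 2-fold 0 were lower with shRNA 2 and 0 higher with either.

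Single members changed sign, and the cause was not tested. Between the libraries taken alone, the differences ran from -0.29 to 0.12 for mt-Nd6, -0.22 to 0.29 for mt-Rnr1, -0.21 to 0.67 for Ndufa10, -0.47 to 0.11 for Ndufa4, -0.38 to 0.091 for Cox7a1, -0.0084 to 0.040 for Sdhb, -0.032 to 0.11 for Sdhc and -0.032 to 0.087 for Sdhd. Ndufs4 was 0.0097 with equal totals and 0.0044 with mitochondrial features left out of them. The median of all features was 0.015 and 0.0095 there. Quantile normalization gave Sdhb -0.0013, Cox7a2l -0.012 and Atp5b 0.023, with the median of all features at -0.023. The correction gave, with all coding transcripts, mt-Rnr1 -0.022, Sdhd -0.0098, Uqcrb -0.077, Uqcrh -0.069 and Cox7a2l -0.028, and with principal transcripts mt-Rnr1 -0.022, Sdhc -0.034, Uqcrc1 0.010 and Cox4i1 0.0070.

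No paired analysis was possible because the control is 1 library whose title carries no shRNA number. The scaling, pseudocount and length alternatives were not run for the share of the total. The control's own error is unknown, and reads of mitochondrial genes with identical copies cannot be assigned between gene and copy from this table.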
